A study of Mus musculus with 6 samples.

Results

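The DNA replication and G1/S genes are the genes that license replication origins, open and copy the DNA, supply its building blocks and drive cells from G1 into S phase. A list of 54 gene symbols was matched to the UMI count table of E0771 cells. Of these, 53 were among the 10520 genes of the table. Orc3 has no row there and was not analysed here. The low-count filter left 50 of the 53 for testing, and Orc4, Cdc6 and Ccne2 did not pass it. E0771 is a mouse breast adenocarcinoma line of C57BL/6 origin. The cells were stably transduced with an empty shRNA vector (shControl, 3 libraries) or with a single shRNA against lamin A/C (shLmna, 3 libraries, whose titles read shRNA4). Cells of both groups were selected with puromycin at 3 µg/ml and expanded, and the methods do not mention cloning. RNA was read by MARS-seq, which captures the 3' ends of polyadenylated transcripts and gives each molecule a unique molecular identifier (UMI), so that amplified copies are counted once.

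In G1 the origin recognition complex, Cdc6 and Cdt1 load the MCM2-7 helicase onto origins. Cdc45 and the GINS complex then switch the helicase on, and DNA polymerases, the PCNA clamp and its RFC loader copy the strands. Cyclin D with Cdk4 and cyclin E with Cdk2 release E2F factors from the retinoblastoma protein, and E2F factors drive many genes of this group. The transcripts of many of these genes rise and fall with the cell cycle. In bulk RNA, fewer cells in S phase and less of a transcript per cell cannot be told apart.

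Libraries held between 1846208 and 3242051 UMIs, and replicates of a group were never as close as counting alone would make them (chi-square of 5.11 to 8.28 for each degree of freedom). The labels do not say whether replicates came from separate cultures, so p-values measure only the spread between these libraries, which may be technical. In the library titles the number after the plate name ran from 13 to 15 for shControl and from 16 to 18 for shLmna. The labels do not say whether this number is a position on the plate. Any effect that goes with it cannot be told apart from that of knockdown. Levels are given as CPM, UMI counts scaled to a common library size. Lmna, the targeted gene, was at 810, 874 and 936 CPM in shControl replicates 1, 2 and 3 and at 388, 376 and 379 in shLmna, a log2 fold change of -1.20 (SE 0.13, adjusted p = 3.55e-05, edgeR). Of 6 epithelial markers, Epcam, Krt7, Krt8 and Krt18 were present and Cdh1 and Krt19 had no row. The epithelial markers summed to 266 to 323 CPM in shControl and 288 to 316 in shLmna. The 4 of 6 fibroblast markers in the table summed to 18.6 to 18.8 and 27.2 to 30.8 CPM. The 2 of 6 leukocyte markers (Lyz2 and Csf1r, with no row for Ptprc) summed to 5.88 to 8.75 and 15.4 to 18.1. The only endothelial marker of 5 in the table, Pecam1, lay between 0.625 and 3.18 in shControl and between 0.750 and 2.13 in shLmna. The part of these markers in the results was not tested.

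Few DNA replication and G1/S genes were called different between lamin A/C knockdown and control cells. Of the 50 tested members, 3 passed an adjusted p of 0.05 (quasi-likelihood F-test of edgeR, adjusted by Benjamini-Hochberg over 8969 genes), or 6.00%, against 13.7% of all tested genes. Gmnn and Tk1 rose and Mcm10 fell. The 2 higher members are 2 of 50, beside 7.96% of all genes called higher, and the 1 lower member stands beside 5.78% called lower. No member met the study's criteria for differential expression (mean normalized count above 5, absolute log2 fold change above 1 and adjusted p below 0.05), which 5.71% of all tested genes met. This count was also 0 with DESeq2 and with limma-voom. At an unadjusted p below 0.05 there were 16 members, 8 higher and 8 lower, or 32.0%, against 28.4% of all genes.

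The log2 fold changes of the 50 members (shLmna over shControl, negative where shLmna was lower) ran from -0.60 to 0.66. Their median was -0.05, against 0.0033 over all tested genes, with 23 above 0 and 27 below. The median absolute log2 fold change was 0.24, close to the 0.27 of all tested genes. The 95% interval of the log2 fold change lay within -1 and 1, a 2-fold change either way, for 46 of the 50 members. Orc1, Gmnn, Pola1 and Tyms were the exceptions. For 24 members the interval lay within 1.5-fold. Over all tested genes 71.7% had an interval within 2-fold, but members were also counted more deeply, with a median of 337 UMIs per library against 89.2. All 53 members together took 0.764% to 0.787% of the UMIs of a shControl library and 0.772% to 0.805% of a shLmna library, and these ranges overlap.

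**Figure D1:**
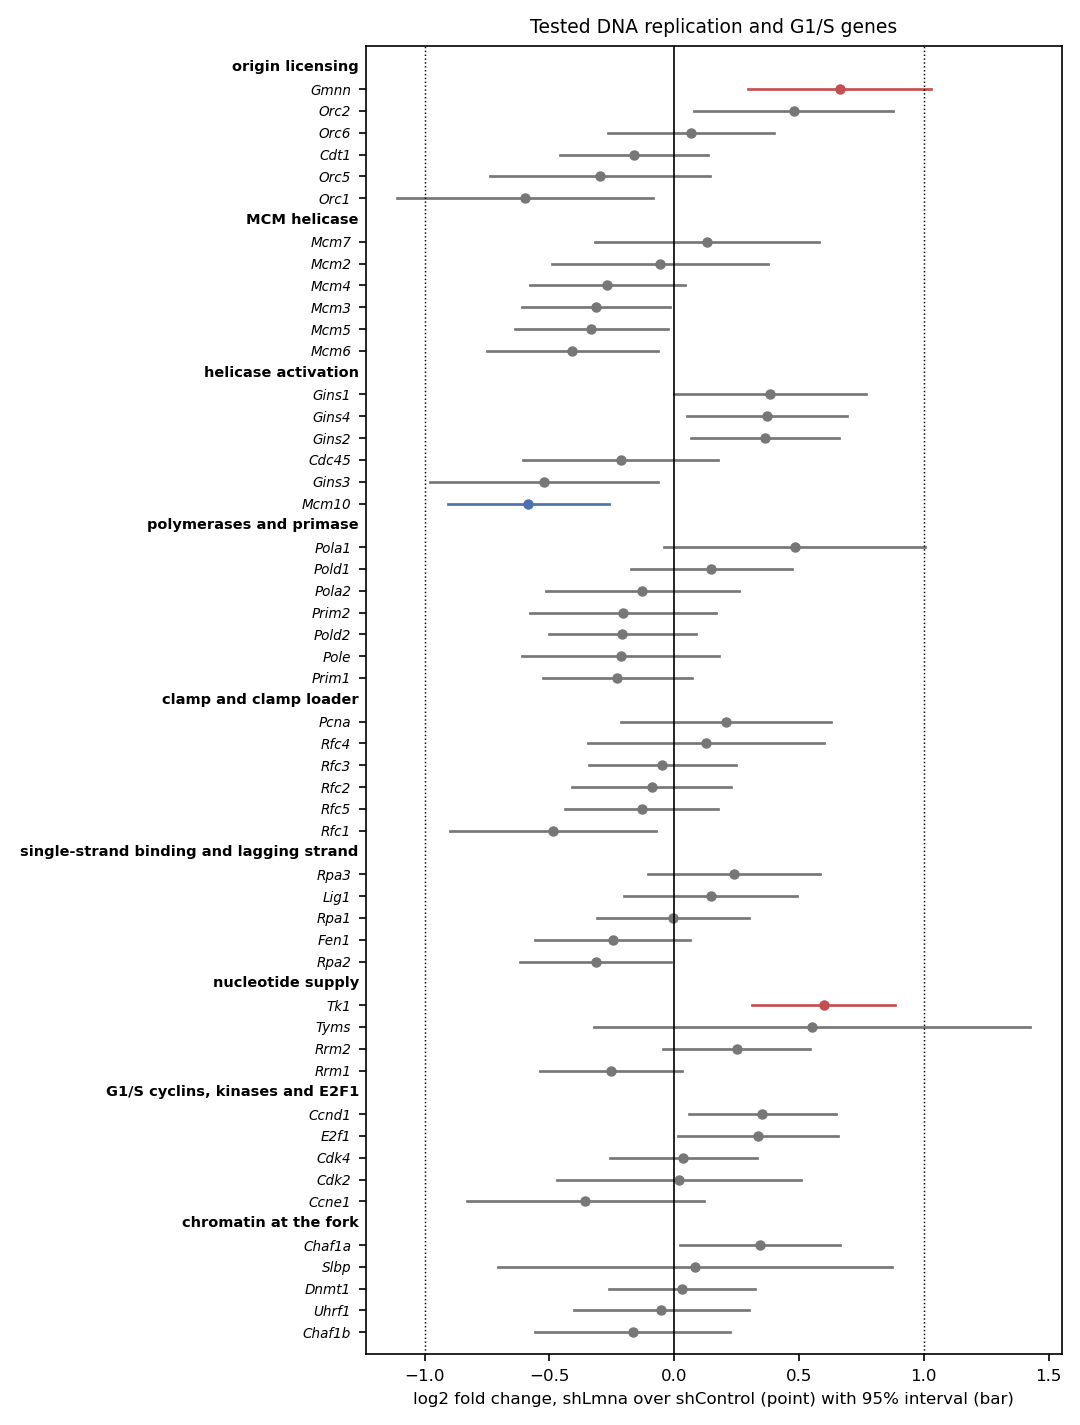
Log2 fold change of shLmna over shControl for the 50 tested members, grouped by role (points, fitted by edgeR; bars, 95% intervals; dotted lines, a 2-fold change). Gmnn and Tk1 (red, higher) and Mcm10 (blue, lower) passed an adjusted p of 0.05, and the grey members did not.

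For 21 of the 50 members the levels of both groups were fully separate, or 42.0%, against 32.5% of all tested genes. Members were counted more deeply than all tested genes, and the part of depth in this share was not tested. In 10 of them every shLmna library was higher (16.8% of all genes) and in 11 every shLmna library was lower (15.7%). The 21 genes were Orc1, Orc2, Gmnn, Mcm3, Mcm5, Mcm6, Mcm10, Gins1, Gins2, Gins3, Gins4, Prim1, Rfc1, Rpa2, Fen1, Rrm1, Rrm2, Tk1, Ccnd1, E2f1 and Chaf1a, and 18 of them did not pass the adjusted p.

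**Figure D2:**
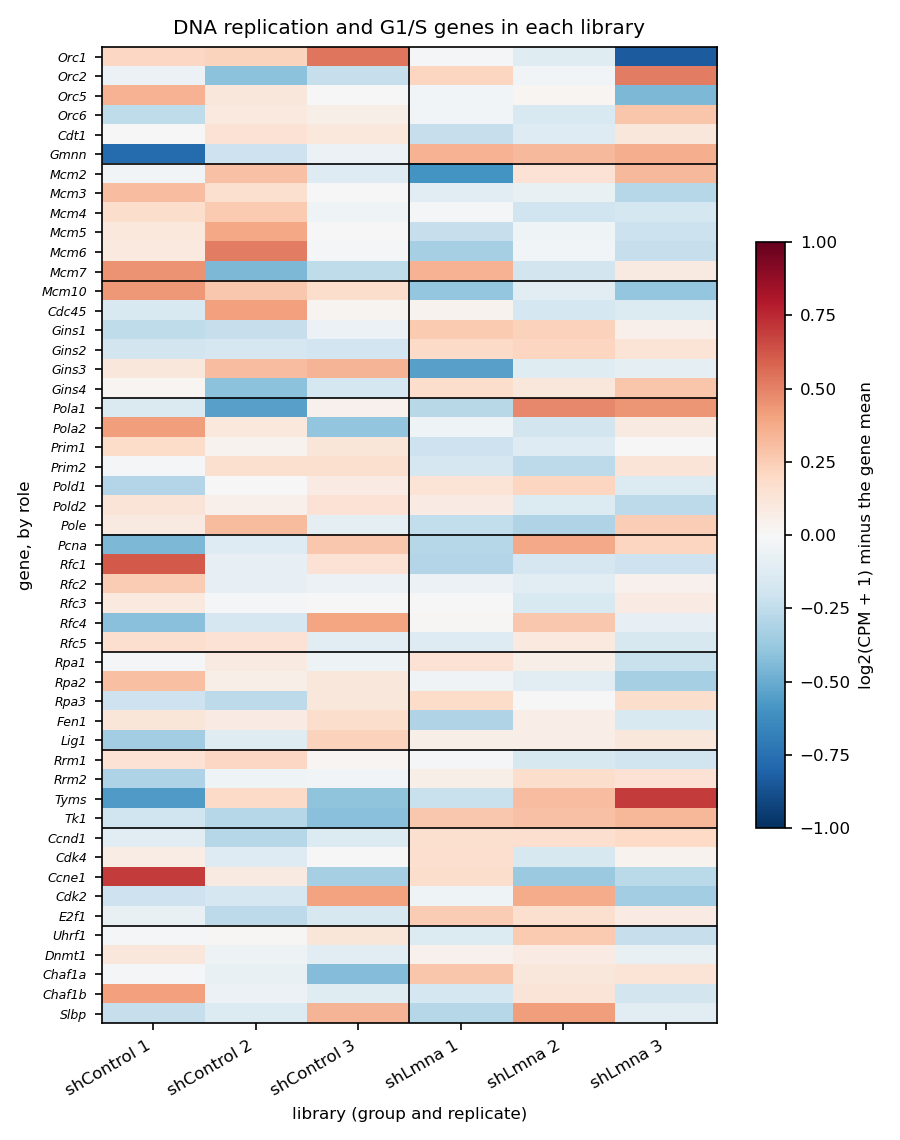
Each tested member (rows, by role) in each library (columns), as log2(CPM + 1) minus the gene's mean over the 6 libraries. Gmnn and Tk1 are below their means in all shControl libraries and above them in all shLmna libraries, Mcm10 the reverse, and 18 further members, which were not called, also have separate groups.

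Among the licensing genes, 1 of 6 tested members was called. Gmnn encodes geminin, which binds Cdt1 in S and G2 phase and keeps origins from being licensed again. It was at 96.9, 144 and 160 CPM in shControl replicates 1, 2 and 3 and at 211, 208 and 213 in the shLmna replicates. The shLmna libraries lay close together and above all shControl libraries, which were spread more widely, with replicate 1 lowest. The mean rose from 133 ± 32.7 (SD, n = 3) to 211 ± 2.54 (SD, n = 3), a log2 fold change of 0.66 (SE 0.17, adjusted p = 0.0187, edgeR), or 1.58-fold. Without shControl replicate 1 it was 0.46 with an adjusted p of 0.0756 (edgeR), and without shControl replicate 2, shLmna replicate 1 or shLmna replicate 3 the adjusted p was 0.0654, 0.0588 and 0.0720.

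Cdt1, the licensing factor that geminin inhibits, was at 316, 351 and 340 CPM in shControl and 269, 290 and 343 in shLmna. These groups overlapped, with a log2 fold change of -0.16 (95% interval -0.46 to 0.14, adjusted p = 0.490, edgeR). The subunits of the origin recognition complex had estimates of both signs. Orc1 was at 25.1, 25.3 and 31.8 CPM in shControl and 21.4, 19.8 and 11.7 in shLmna, and Orc2 at 46.7, 36.3 and 41.4 against 56.6, 47.7 and 69.7. Neither pair of groups overlapped, but the log2 fold changes of -0.60 for Orc1 and 0.48 for Orc2 had adjusted p-values of 0.114 and 0.104 (edgeR). Orc5 and Orc6 had log2 fold changes of -0.30 and 0.07.

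The untested licensing genes were near the detection limit. Cdc6, which loads MCM2-7 with Cdt1, had 9, 10 and 5 UMIs in shControl and 6, 6 and 3 in shLmna. Scaled to library size, these were 3.53, 3.13 and 2.65 CPM against 2.25, 2.20 and 1.60 CPM, lower in every shLmna library. Orc4 had 6, 1 and 0 UMIs in shControl and 2, 6 and 4 in shLmna, which overlap. Neither gene was tested, since both were under the count filter.

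None of the 6 MCM2-7 subunits, which together form the ring of the replicative helicase, was called, and 5 of the 6 estimates were below 0 with a median log2 fold change of -0.29. Mcm5 was at 397, 482 and 367 CPM in shControl and 315, 357 and 318 in shLmna. Mcm3 was at 406, 365 and 327 against 303, 311 and 269, and Mcm6 at 280, 372 and 258 against 208, 257 and 222. In these 3 genes every shLmna library was below every shControl library, but only by small margins, as was the case for 15.7% of all tested genes. Their log2 fold changes were -0.33 (95% interval -0.64 to -0.03) for Mcm5, -0.31 (-0.61 to -0.02) for Mcm3 and -0.41 (-0.75 to -0.06) for Mcm6, with adjusted p-values of 0.141, 0.151 and 0.107 (edgeR). Mcm6 passed with an adjusted p of 0.0329 (edgeR) when shControl replicate 3 was left out. Mcm4 (-0.27), Mcm2 (-0.06) and Mcm7 (0.13) overlapped between groups.

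MCM genes are textbook targets of E2F, so the promoters were searched for the E2F letters TTTCCCGC, TTTGGCGC, TTTCGCGC and TTTGCCGC on both strands, where matches on opposite strands can overlap. RefSeq promoters of GRCm38.p6, from 250 bases before to 50 after a start, matched 43 of the 53 members. Gmnn, Mcm4, Gins1, Gins2, Gins4, Prim2, Pole, Rfc2, Ccnd1 and Ccne2 were not matched. The letters were present for 15 of the 43, or 34.9%, against 5.15% of the 6928 tested genes with a promoter and 2.60% of all 27025 genes of the promoter table. CCAAT was present for 65.1% of the members and 42.9% of the tested genes, the CHR letters TTTGAA for 6 of the 43 and 13.5%, and the E-box CACGTG for 20.9% and 12.4%. The last 200 bases before the start are shown for the called members Tk1 and Mcm10, and for Mcm5 and Mcm6, which were chosen after their matches were seen because they hold overlapping copies. The starts are those of RefSeq. In GENCODE M21, another annotation, Tk1 reaches 117826092, so part of its printed stretch lies inside the gene there. Capitals mark the E2F letters.
Tk1 (chr11:117826015-117826214, GRCm38.p6, reverse strand): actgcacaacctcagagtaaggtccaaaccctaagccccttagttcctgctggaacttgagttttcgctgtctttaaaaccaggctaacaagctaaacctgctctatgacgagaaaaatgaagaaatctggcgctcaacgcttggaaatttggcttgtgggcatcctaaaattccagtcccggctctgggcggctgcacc
Mcm10 (chr2:5012792-5012991, reverse strand): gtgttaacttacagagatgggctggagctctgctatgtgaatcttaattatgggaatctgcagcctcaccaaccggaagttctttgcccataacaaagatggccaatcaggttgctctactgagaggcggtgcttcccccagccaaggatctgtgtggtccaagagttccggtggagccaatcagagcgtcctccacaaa
Mcm5 (chr8:75109309-75109508, forward strand): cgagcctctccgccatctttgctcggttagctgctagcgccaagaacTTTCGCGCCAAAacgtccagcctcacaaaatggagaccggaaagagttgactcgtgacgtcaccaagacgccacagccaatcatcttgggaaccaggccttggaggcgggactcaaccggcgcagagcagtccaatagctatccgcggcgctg
Mcm6 (chr1:128359706-128359905, reverse strand): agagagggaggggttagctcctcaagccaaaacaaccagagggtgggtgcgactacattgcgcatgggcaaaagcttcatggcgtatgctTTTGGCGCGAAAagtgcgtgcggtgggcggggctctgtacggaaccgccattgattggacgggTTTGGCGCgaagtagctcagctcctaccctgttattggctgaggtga

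The windows of Tk1 and Mcm10 hold no match to these letters, and those of Mcm5 and Mcm6 hold 2 and 3. Among the members tested, the 14 with the letters had a median log2 fold change of -0.05 (from -0.60 to 0.48) and none was called. The 27 without them had a median of -0.06 (from -0.59 to 0.60), and 2 were called (Tk1 and Mcm10). Gmnn, the other called member, is in neither count. A match is a run of letters and not a measured binding site. Only these exact letters were searched, so a promoter without a match may still hold an E2F site.

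Among the genes that activate the helicase, Mcm10 fell. Mcm10 joins the activated helicase at origins and is needed for unwinding to begin. It was at 147, 131 and 123 CPM in shControl and 82.8, 101 and 83.0 in shLmna. All shLmna libraries were below all shControl libraries, with means of 134 ± 12.2 and 88.9 ± 10.4 (SD, n = 3 each), a log2 fold change of -0.59 (SE 0.15, adjusted p = 0.0185, edgeR). Leaving out shControl replicate 1, shControl replicate 2, shLmna replicate 1 or shLmna replicate 3 raised the adjusted p to 0.0715, 0.0748, 0.0687 and 0.0838 (edgeR), with log2 fold changes between -0.60 and -0.53.

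The GINS subunits, which form a single complex of 4 proteins, had estimates of both signs. Gins2 was at 88.2, 89.1 and 87.5 CPM in shControl and at 114, 116 and 110 in shLmna. Gins4 was at 143, 106 and 125 against 160, 152 and 171. The shLmna libraries were above the shControl libraries for Gins1, Gins2 and Gins4, with log2 fold changes of 0.38, 0.36 and 0.37 and adjusted p-values of 0.178, 0.0980 and 0.116 (edgeR). Gins3 was at 24.7, 28.5 and 29.2 in shControl and 15.4, 20.9 and 21.3 in shLmna, a log2 fold change of -0.52 with an adjusted p of 0.121 (edgeR). Cdc45, the other helicase activator, overlapped between groups (-0.21).

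**Figure D3:**
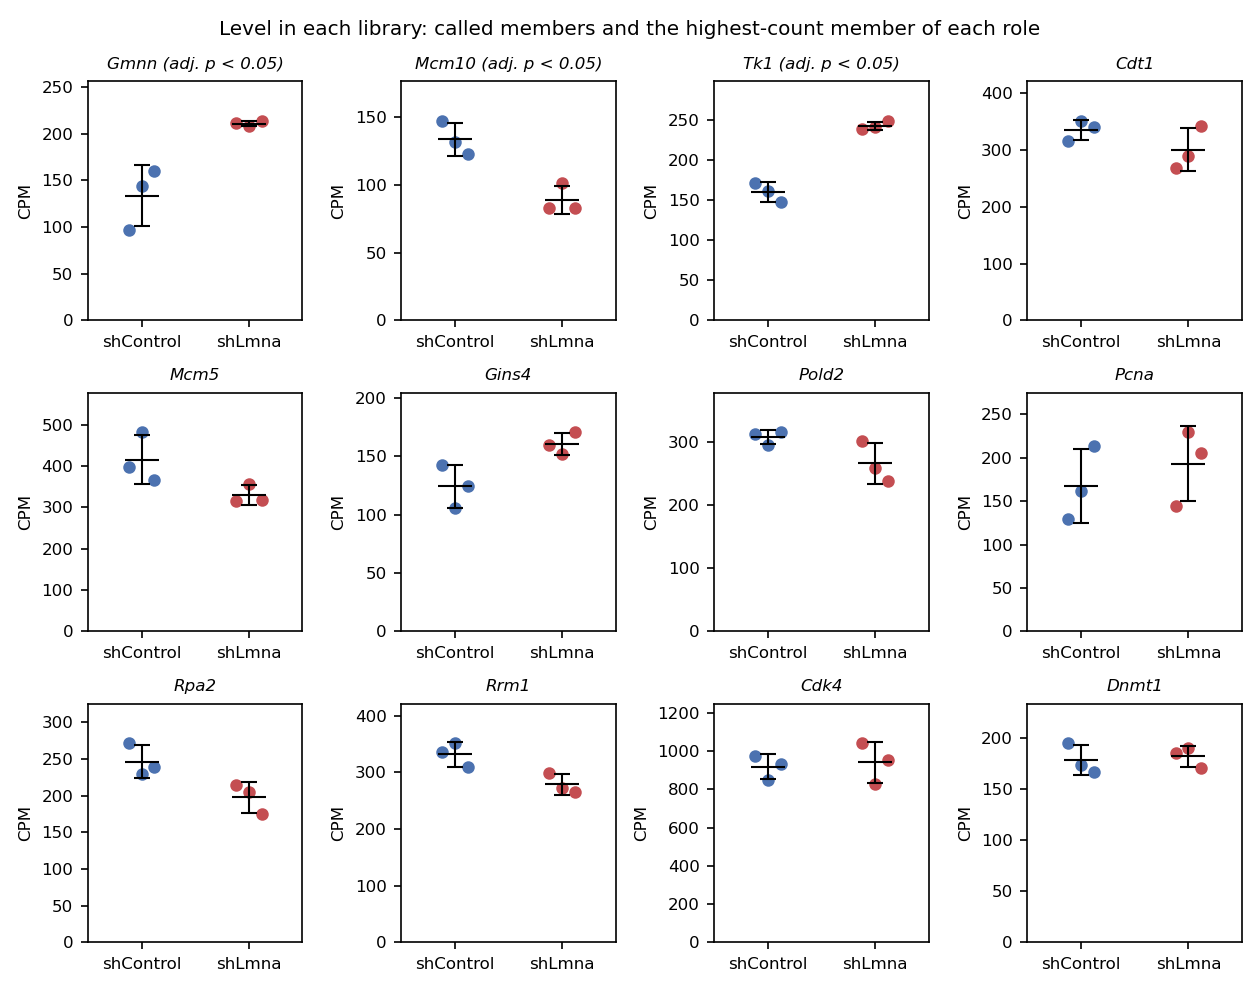
CPM in each library (points; axes start at 0) with mean and SD of 3 libraries (bars) for the 3 called members and the member with the highest mean level in each of the 9 roles. The groups do not overlap for Gmnn, Mcm10 and Tk1, nor for Mcm5, Gins4, Rpa2 and Rrm1, and they overlap for Cdt1, Pold2, Pcna, Cdk4 and Dnmt1.

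None of the 7 polymerase and primase genes was called, with log2 fold changes between -0.23 and 0.48. Pold2, an accessory subunit of the lagging-strand polymerase delta, was at 313, 295 and 316 CPM in shControl and 302, 260 and 238 in shLmna, which overlap (-0.21, 95% interval -0.50 to 0.09). Prim1, the catalytic primase subunit that starts each new strand, was lower in every shLmna library, at 111, 117 and 128 against 145, 131 and 140, with a log2 fold change of -0.23 and an adjusted p of 0.309 (edgeR). Pola1 (0.48), the catalytic subunit of polymerase alpha, had the widest interval of the group (-0.04 to 1.00). Pola2, Prim2, Pold1 and Pole had estimates of -0.13, -0.21, 0.15 and -0.21.

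The sliding clamp Pcna was at 129, 162 and 213 CPM in shControl and 145, 229 and 205 in shLmna. The spread within each group was larger than the difference between their means of 168 ± 42.5 and 193 ± 43.5 (SD, n = 3 each), and the log2 fold change was 0.21 (95% interval -0.22 to 0.63, adjusted p = 0.537, edgeR). Of the clamp loader subunits, Rfc1, the large subunit, was at 79.6, 48.8 and 57.3 in shControl and 42.0, 45.9 and 44.7 in shLmna (-0.48, adjusted p = 0.112, edgeR). Rfc2, Rfc3, Rfc4 and Rfc5 overlapped between groups, with log2 fold changes between -0.13 and 0.13.

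The genes for single-strand DNA binding and for joining of lagging-strand fragments were not called. Rpa2 was at 271, 229 and 239 CPM in shControl and 214, 204 and 174 in shLmna, without overlap (log2 fold change -0.32, adjusted p = 0.158, edgeR). Its partners in the RPA trimer, Rpa1 and Rpa3, had log2 fold changes of -0.0041 and 0.24 and overlapped. Fen1, the flap endonuclease that trims lagging-strand fragments, was at 144, 141 and 150 in shControl and 108, 139 and 119 in shLmna (-0.25). Lig1, the ligase that seals them, had a log2 fold change of 0.15.

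Tk1 rose among the nucleotide supply genes and was the member with the smallest adjusted p. Tk1 is the cytosolic thymidine kinase, which feeds salvaged thymidine into DNA synthesis. It was at 172, 162 and 147 CPM in shControl and at 239, 242 and 249 in shLmna. The lowest shLmna library was well above the highest shControl library, and the means were 160 ± 12.4 and 243 ± 5.14 (SD, n = 3 each). The log2 fold change was 0.60 (SE 0.13, adjusted p = 0.00887, edgeR), or 1.51-fold, and it passed with every library left out in turn, between 0.53 and 0.64.

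The subunits of ribonucleotide reductase, which makes deoxyribonucleotides, had estimates of opposite sign. Rrm1, the large subunit, was at 336, 351 and 309 CPM in shControl and 299, 272 and 265 in shLmna. Rrm2, the S-phase subunit, was at 164, 197 and 199 against 212, 229 and 224. Neither gene overlapped between groups, and neither passed, with log2 fold changes of -0.25 (adjusted p = 0.234, edgeR) and 0.25 (0.261). Tyms, thymidylate synthase, had 6 to 17 UMIs in a library and a log2 fold change of 0.55 with an interval from -0.32 to 1.43, so that a 2-fold rise lay within the interval at this depth.

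No tested gene of the G1/S cyclins, kinases and E2F1 was called. Ccnd1, cyclin D1, was at 116, 102 and 114 CPM in shControl and 139, 140 and 144 in shLmna. E2f1, an activating E2F factor, was at 70.6, 61.9 and 66.3 against 88.8, 83.0 and 78.7. In both genes all shLmna libraries were higher, with log2 fold changes of 0.35 and 0.34 and adjusted p-values of 0.106 and 0.154 (edgeR). Cdk4, the kinase partner of cyclin D1, was at 975, 848 and 932 in shControl and 1041, 831 and 952 in shLmna (0.04, 95% interval -0.26 to 0.33). Cdk2 (0.02) also overlapped.

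Ccne1, cyclin E1, was at 286, 187 and 139 CPM in shControl and 198, 135 and 145 in shLmna. The groups overlapped, with the shControl libraries spread more widely, and the log2 fold change was -0.36 (adjusted p = 0.319, edgeR). Leaving out single libraries gave estimates from -0.57 to -0.05, and the gene passed (adjusted p = 0.0461, edgeR) only without shControl replicate 3. Ccne2, cyclin E2, had 0, 1 and 2 UMIs in shControl and 5, 6 and 9 in shLmna and was not tested. Set against a floor of 3 UMIs in each shControl library it was at least 2.39-fold higher in shLmna. Its 3' end has a GC content of 28.7%, a range in which many genes were higher in shLmna, and the part of GC content in this difference was not tested.

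The chromatin genes of the replication fork were not called. Dnmt1, which copies DNA methylation to the new strand, was at 195, 174 and 167 CPM in shControl and 186, 191 and 171 in shLmna (0.03, 95% interval -0.26 to 0.32), and Uhrf1, which recruits it, had a log2 fold change of -0.05. The large subunits of chromatin assembly factor 1 had estimates of 0.34 (Chaf1a) and -0.17 (Chaf1b). Chaf1a was at 148, 142 and 111 in shControl and 183, 163 and 165 in shLmna, without overlap (adjusted p = 0.146, edgeR). Slbp, which binds histone mRNA, had 9 to 20 UMIs in a library and an estimate of 0.08 (-0.71 to 0.87).

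MARS-seq counts 3' ends, so GC content was computed for the final 1000 bases of each transcript. Over all tested genes, the 466 with a GC content under 35% had a median log2 fold change of 0.39 and 24.0% of them were called higher. From 45% to 50% GC the median was -0.05 and 5.08% were called higher. The 50 tested members lay between 35.1% and 59.6%, with a median of 46.8% against 47.1% for all genes. Of the untested members, Ccne2 lies lowest, at 28.7%. Genes under 38% GC lay at a median of -0.34, -0.14 and 0.10 (log2, relative to each gene's mean over libraries) in the shControl libraries and at -0.01, 0.27 and 0.20 in the shLmna libraries.

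With a GC term in the fit, 7 members passed, 4 higher and 3 lower of 50, against 16.8% of all genes. Gmnn (0.70), Tk1 (0.62) and Mcm10 (-0.55) were among them. Gins2 (0.41, adjusted p = 0.0443, edgeR) and Ccnd1 (0.40, 0.0497) passed only narrowly. Mcm4 and Rrm1, whose 3' ends have GC contents of 35.1% and 35.7%, were at -0.27 and -0.25 without the term and were not called. They moved to -0.72 (adjusted p = 0.0142, edgeR) and -0.66 (0.0136). The term was fitted to each library without regard to group. A GC bias and a true difference of low-GC genes between the groups can therefore not be told apart. Pcna, at 37.9% GC, moved to -0.01. In 4 of the 50 members (Mcm4, Pcna, Rrm1 and Slbp) the term moved the log2 fold change by more than 0.2.

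**Figure D4:**
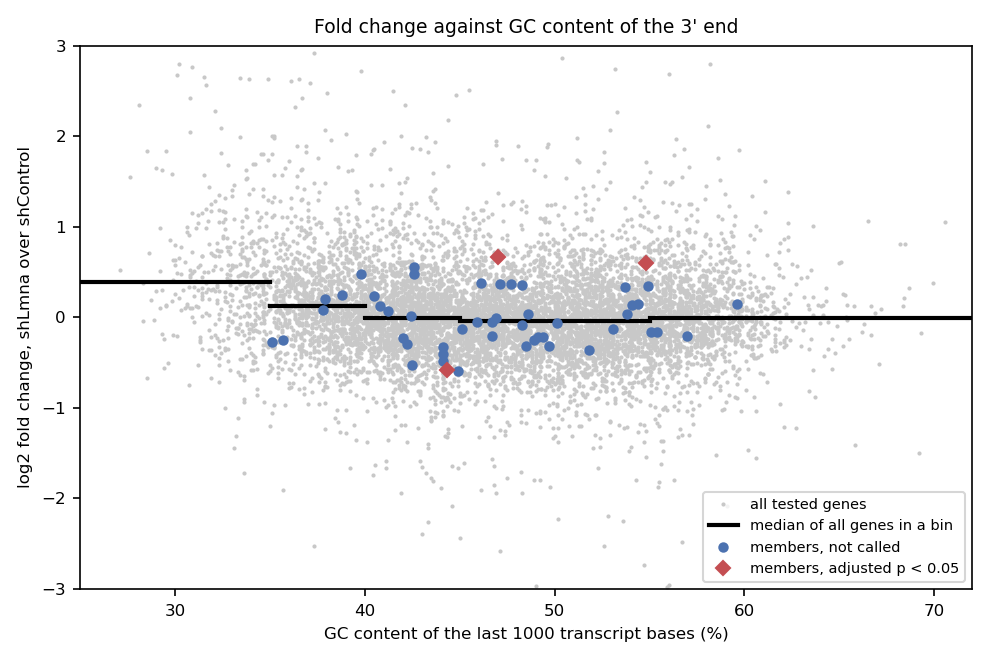
Log2 fold change against the GC content of the 3' end for all tested genes (grey), uncalled members (blue circles) and the 3 called members (red diamonds), with the median of all genes in each GC bin (black lines; 89 genes lie outside the axes). The median is 0.39 below 35% GC, where no tested member lies, and between -0.05 and 0.13 in the other bins.

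The counted 3' ends of 14 of the 53 members lie over an exon of some gene of the other strand in GENCODE M21, and the methods do not say whether counting used the strand. Without strand, reads of both genes cannot be told apart. Ccnd1, Gins2, Cdk4, Mcm7, Pold2, Fen1, Orc1, Orc2 and Chaf1a are among them, and Gmnn, Tk1 and Mcm10 are not. Gmnn lies on chromosome 13 from 24751845 to 24761923, Tk1 on chromosome 11 from 117815526 to 117826092 and Mcm10 on chromosome 2 from 4989714 to 5012791, all on the reverse strand of GRCm38.

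Of 27 replication factors outside the list, 25 were tested, 3 were called higher and none lower, beside 7.96% and 5.78% of all genes, and the median log2 fold change was 0.07. With the GC term 3 were called higher and 1 lower, beside 16.8% of all genes called in either direction with this term. This list and the further lists below were chosen with earlier results of these data known. The part of that choice in their shares was not tested. Rif1, which sets replication timing and protects forks, had 3, 3 and 1 UMIs in shControl and 28, 54 and 38 in shLmna, at least 13.6-fold higher against a floor of 3 UMIs in each shControl library. Atad5, which unloads PCNA, had 3, 0 and 4 UMIs against 22, 24 and 17 (log2 fold change 3.15, adjusted p = 0.00203, edgeR). Dscc1, a subunit of an alternative clamp loader, was at 12.2, 11.6 and 19.1 CPM in shControl and 24.0, 43.7 and 28.7 in shLmna (1.21, adjusted p = 0.00926, edgeR, and 0.0787 without shControl replicate 2 and 0.0515 without shLmna replicate 2). The 3' ends of Rif1 and Atad5 have GC contents of 29.5% and 34.8%, and with the GC term the log2 fold change of Atad5 was 2.70 and both genes still passed (adjusted p = 0.000192 for Rif1 and 0.00394 for Atad5, edgeR).

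Regulators of the G1/S switch outside the list included genes that rose and genes that fell. Of 32 such genes, 28 were tested, 7 were called higher and 3 lower, beside 7.96% and 5.78% of all genes, and the median log2 fold change was 0.09. With the GC term 6 were called higher and 6 lower, beside 16.8% of all genes called in either direction with this term. The list was chosen with earlier results known, so these shares may reflect the choice of genes. Cdkn1a, the CDK inhibitor p21, was at 116, 99.1 and 92.8 CPM in shControl and 37.1, 41.1 and 35.1 in shLmna, a log2 fold change of -1.44 (SE 0.16, adjusted p = 4.57e-05, edgeR). Myc, a growth-driving transcription factor, was at 605, 576 and 610 against 287, 288 and 261 (-1.10, SE 0.13, adjusted p = 6.96e-05, edgeR). Cdc25a, the phosphatase that activates Cdk2, was at 78.8, 75.7 and 72.7 against 42.3, 45.9 and 40.9 (-0.81, adjusted p = 0.00334, edgeR). In these 3 genes the lowest shControl library was far above the highest shLmna library.

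Among the higher regulators, Ccna2, the S-phase cyclin A2, was at 125, 136 and 181 CPM in shControl and 255, 273 and 248 in shLmna (0.82, adjusted p = 0.00323, edgeR). Cdkn2c, an inhibitor of Cdk4, rose by 0.96 on the log2 scale (adjusted p = 0.0127, edgeR), and its adjusted p was 0.0599 without shControl replicate 2 and 0.0664 without shLmna replicate 2. Cdkn1b, the CDK inhibitor p27, had 7 to 12 UMIs in shControl and 19 to 35 in shLmna (1.36, adjusted p = 0.0170, edgeR). Rbl1, the pocket protein p107, had 28 to 43 against 50 to 78 UMIs (0.90, adjusted p = 0.0115, edgeR). Cdkn1b and Rbl1 have GC contents of 33.9% and 32.5% in their 3' ends, and with the GC term they were at 0.80 (adjusted p = 0.119, edgeR) and 0.26 (0.498). Cdkn1b also lost its call with DESeq2 (adjusted p = 0.0641) and without shControl replicate 2, shLmna replicate 2 or shLmna replicate 3 (adjusted p = 0.104, 0.0934 and 0.0640, edgeR) and Rbl1 without shControl replicate 2 (0.0784).

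**Figure D5:**
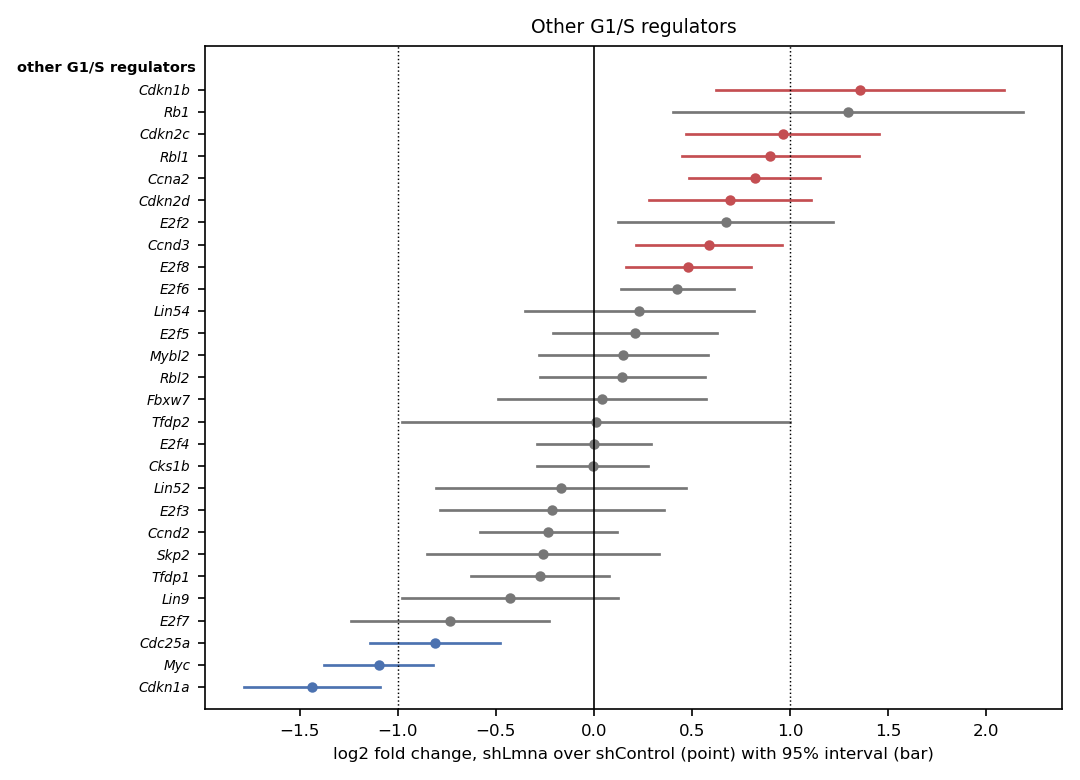
Log2 fold change of shLmna over shControl for the 28 tested G1/S regulators outside the list (points; bars, 95% intervals; dotted lines, a 2-fold change). Cdkn1a, Myc and Cdc25a (blue) were called lower and 7 genes (red) higher, and the grey genes did not pass an adjusted p of 0.05.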

How the data were processed

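RNA of 3 shControl and 3 shLmna E0771 libraries was sequenced by MARS-seq. Per the methods, the authors trimmed reads with Cutadapt, mapped them to mm10 with STAR 2.4.2a and counted UMIs with a modified HTSeq-count in the last 1000 bases of RefSeq genes and 100 bases downstream. The deposited counts are raw UMI counts without normalization for 10520 genes, and every gene reaches 6 UMIs or more in its highest library. The authors' batch-corrected log2 values (the batch is not named) and their DESeq2 table of fold changes and p-values were not used.

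The tests used edgeR 4.0.16 under R 4.3.3 (filterByExpr with a minimum count of 10, TMM factors, quasi-likelihood test, Benjamini-Hochberg adjustment over 8969 genes, group as the only term). CPM are counts over TMM-scaled library sizes. Standard errors are the log2 fold change over the root of F, and 95% intervals use the t distribution of the fit. An exact permutation test of 3 against 3 libraries cannot give a p below 0.1. Libraries held 1846208 to 3242051 UMIs, which limits the precision of genes with few UMIs. For deeply counted genes the spread between libraries was larger than counting error.

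GC content came from the longest GENCODE M21 (GRCm38) protein-coding transcript, or the longest transcript of any type where a gene had none. A transcript was matched for 10467 genes, 322 through an older symbol. GC content entered as an offset from a loess curve per library (span 0.3, degree 2). DESeq2 1.42.0, limma-voom (limma 3.58.1), other scalings and filters, thinning, the replicate number as a block and leaving out each library were alternatives. Scripts were tested on simulated data. Python 3.11.15 and matplotlib 3.10.9 drew the plots.

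Members and lists were chosen with earlier results of these data known. Every member is accounted for. Values in all libraries are given for members at an adjusted p below 0.05 and for the member with the highest mean level in each role, and further members were given so after their values were seen. From other lists, called genes are named, at most 4 in each direction.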

Additional observations from a re-analysis of the deposited data

How the results depend on the processing

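Some results moved with the processing, and the cause was not tested where no value shows it. The number of all genes called was 1232, and 779 when only genes with a mean count of at least 50 were tested, which leaves 5846 genes. It ran from 540 to 1580 with each library left out in turn. Members called higher numbered 2, then 4 with the GC offset and 2 with the GC offset and the replicate block. They numbered 1 to 2 with each library left out in turn, and 1 without shControl replicate 1, shControl replicate 2, shLmna replicate 1 or shLmna replicate 3, where Tk1 was called. Members called lower numbered 1, then 3 with the GC offset and 3 with the GC offset and the replicate block, and 0 to 3 with each library left out. The count of 3 arose without shControl replicate 3, where Mcm10, Mcm6 and Ccne1 passed. Under all 16 alternatives the count of members past the study's criteria was 0, Lmna passed, and the median log2 fold change of the members stayed between -0.08 and -0.02.

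Among the members with the highest level in their role, the sign changed for Pcna (-0.0090 with the GC offset and -0.010 with the GC offset and the replicate block), Cdk4 (-0.021 without shControl replicate 2, within -0.057 to 0.121 over the libraries left out) and Dnmt1 (-0.0228 without shControl replicate 3, within -0.0228 to 0.0874). The sign also changed under at least 1 alternative for Orc6, Mcm2, Mcm7, Pola2, Rfc2, Rfc3, Rfc4, Rpa1, Cdk2, Uhrf1, Chaf1b and Slbp, none of which was called. Both groups carry replicate numbers 1 to 3, and the labels do not say what a number shares. Deviations of same-numbered libraries correlated at 0.35, -0.11 and 0.0052, so the numbers were not taken as pairs. With the replicate block 1350 genes were called in place of 1232, and 2 members higher and 1 lower, as without it. Depth limits Cdc6, Orc4, Ccne2, Tyms and Slbp.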

Other observations

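Among 23 further nucleotide supply genes, 21 were tested, none was called higher and 3 were called lower, beside 7.96% and 5.78% of all genes. Impdh1, which commits purine synthesis to guanine nucleotides, was at 617, 573 and 482 CPM in shControl and 353, 294 and 341 in shLmna (log2 fold change -0.76, adjusted p = 0.00314, edgeR), and it passed under every alternative. Atic, which completes purine synthesis, and Ctps, which makes CTP, had log2 fold changes of -0.75 and -0.48 (adjusted p = 0.0163 and 0.0312, edgeR). Both lost their calls in 4 of the 16 alternatives, each a fit without a single library: Atic without shControl replicate 1 or 2 or shLmna replicate 2 or 3 (adjusted p = 0.0579, 0.106, 0.0649 and 0.0762) and Ctps without shControl replicate 2 or any shLmna replicate (0.128, 0.0837, 0.0666 and 0.0906).

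Of 9 tested chromatin genes of the fork outside the list, 2 were called higher, beside 7.96% of all genes. These genes too were chosen with earlier results known, and the share may reflect that choice. Hells, a chromatin remodeller that aids DNA methylation, had 3, 3 and 6 UMIs in shControl and 64, 67 and 72 in shLmna (log2 fold change 4.12, adjusted p = 9.95e-06, edgeR, and 3.70 with the GC offset). Its 3' end has a GC content of 35.4%. Rbbp7, a histone-binding protein, was at 28.6, 46.0 and 79.1 CPM in shControl and 81.7, 101 and 97.3 in shLmna (0.89, adjusted p = 0.0342, edgeR). It lost its call with any library left out except shControl replicate 3 (adjusted p from 0.0732 to 0.178) and when only genes with a mean count of at least 50 were tested (0.0619).

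Of 20 G2/M genes, 18 were tested and 1 was called, against 13.7% of all genes. Cdc20, an activator of the anaphase-promoting complex, was at 434, 386 and 371 CPM in shControl and 328, 275 and 240 in shLmna (-0.50, adjusted p = 0.0376, edgeR). Its adjusted p was 0.112, 0.104, 0.107 and 0.154 without shControl replicate 1, shControl replicate 2, shLmna replicate 2 and shLmna replicate 3, and 0.0501 with counts thinned to the smallest library. The median log2 fold change of the 18 genes was 0.19.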
